A study of Rattus norvegicus with 24 samples.

Results

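Expression of 7 genes that hold back the cell cycle or belong to its damage response was followed through 6 rat tissues and 4 ages: Cdkn1a, Cdkn1b, Cdkn1c, Cdkn2b, Cdkn2c, Gadd45a and Mdm2. They were chosen by name, as the probe sets whose only gene symbol in the array's annotation is one of these 7, and make 7 of the 10411 genes measured. They are carried by 10 probe sets, 2 each for Cdkn1a, Cdkn1b and Mdm2 and 1 each for the other 4 genes. The animals were untreated male Sprague-Dawley rats aged 4, 10, 18 or 24 months, with no allele or agent that sets one group apart from another. Bone, kidney, liver, spleen lymphocyte, pituitary and hypothalamus were taken from the same 10 rats at each age, and RNA of 1 tissue from these 10 rats was pooled on 1 array, which gives 24 arrays. Nothing therefore measures the spread between rats, and no tissue at any age has a replicate. The study asked how expression changes with age run together or apart in different tissues, and for these genes the same design gives 2 comparisons, between tissues and between consecutive ages.

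The products of these genes act on the cyclin-dependent kinases (CDKs), the enzymes that drive a cell from one phase of its cycle to the next. The Cip/Kip inhibitors, p21 from Cdkn1a, p27 from Cdkn1b and p57 from Cdkn1c, bind whole cyclin-CDK complexes, whereas the INK4 inhibitors, p15 from Cdkn2b and p18 from Cdkn2c, bind the kinases that work with D-type cyclins. The tumour suppressor p53 turns on Cdkn1a, Gadd45a and Mdm2 after DNA damage, and the Mdm2 protein in turn marks p53 for destruction. Several CDK inhibitors accumulate in senescent cells, which have left the cell cycle for good, and p27 is high in many resting cells, including resting lymphocytes.

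Each value is a MAS5.0 signal, the brightness of a gene's probes brought by the authors to one common mean on every array, so a signal can be set against other arrays for the same probe set but not against another gene. A signal of 100 was taken as the level below which a value is not ordered. Where a gene had 2 probe sets, the one at 100 or more on the most arrays was kept, and values are of that probe set unless the second is named. The median signal of an array was between 213 and 309, and 75.9 to 82.3% of genes were at 100 or more. The 18-month bone array stood apart at its low end, where 5% of signals lay under 33.5, whereas elsewhere this limit was between 9.13 and 15.7. Markers of each labelled tissue had their highest summed signal in that tissue. The 8 lymphocyte markers measured, for example, summed to between 31068 and 36436 in spleen lymphocyte, 5211 to 5451 in bone and at most 1974 elsewhere. The 10-month hypothalamus array stood apart in its hepatocyte markers. The 8 measured summed to 13028 on it, against 2717, 1342 and 1469 in hypothalamus at 4, 18 and 24 months. The samples are whole tissues or mixed cells, in which fewer cells of a type and less RNA per cell cannot be told apart.

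**Figure D1:**
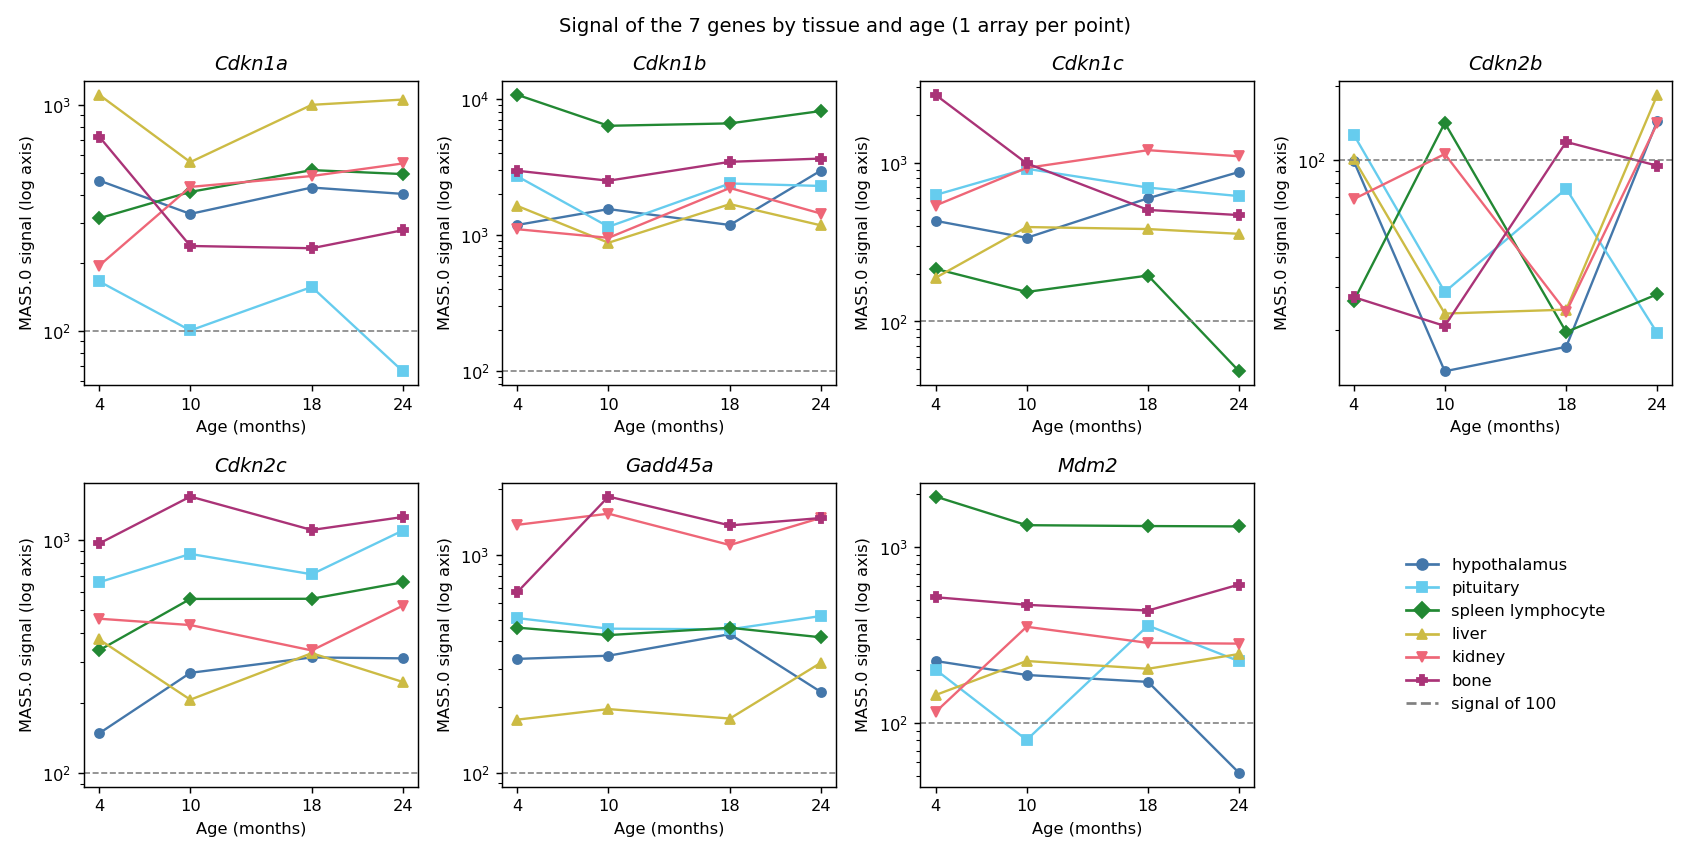
MAS5.0 signal (log axis) of the kept probe set of each of the 7 genes against age in months, with 1 line per tissue and 1 array per point. The dashed line marks a signal of 100. Spleen lymphocyte lies above every other tissue at all 4 ages for Cdkn1b and Mdm2, the bone line of Cdkn1c goes from 2668 to 467, and Cdkn2b stays at 184 or below.

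The tissue a sample came from set most of the variation of these genes. Cdkn1a was highest in liver and lowest in pituitary, Cdkn1b and Mdm2 were highest in spleen lymphocyte, Gadd45a was high in kidney and bone, and Cdkn2c was high in bone and pituitary. Of the variation of log2 signals over the 24 arrays, tissue took between 71.6% for Cdkn1c and 91.0% for Gadd45a, and age between 0.314% for Cdkn1c and 6.38% for Cdkn1b. The median over all 8452 genes tested was 82.8% for tissue and 2.10% for age. Tissues were compared in limma on the log2 of signals raised to at least 100, each tissue against the mean of the other 5, with age as a second factor and adjustment over all 8452 genes, and the 4 ages of a tissue stand in for replicates. Cdkn2b was at 100 or more on only 8 arrays and was not tested. The other 6 genes gave 24 calls among 36 comparisons.

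These calls are read against the share of all genes called. Hypothalamus was called for 4 of the 6 genes, all lower, where 58.6% of all genes were called. Pituitary was called for 3, 1 higher and 2 lower, against 53.9% of all genes. Spleen lymphocyte was called for 3, 2 higher and 1 lower, against 65.1%, and kidney for 3, 2 higher and 1 lower, against 55%. Liver was called for 6 of 6, of which 5 were lower, where 64.3% of all genes were called. Bone was called for 5, all higher, against 54.3%. The median difference of the 6 genes was 0.89 on the log2 scale in bone, where the median of all genes was 0.0011, and -0.90 in liver, where that of all genes was -0.25. In hypothalamus it was -0.74 against -0.13 for all genes, and in the other 3 tissues it lay between -0.19 and 0.15.

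**Figure D2:**
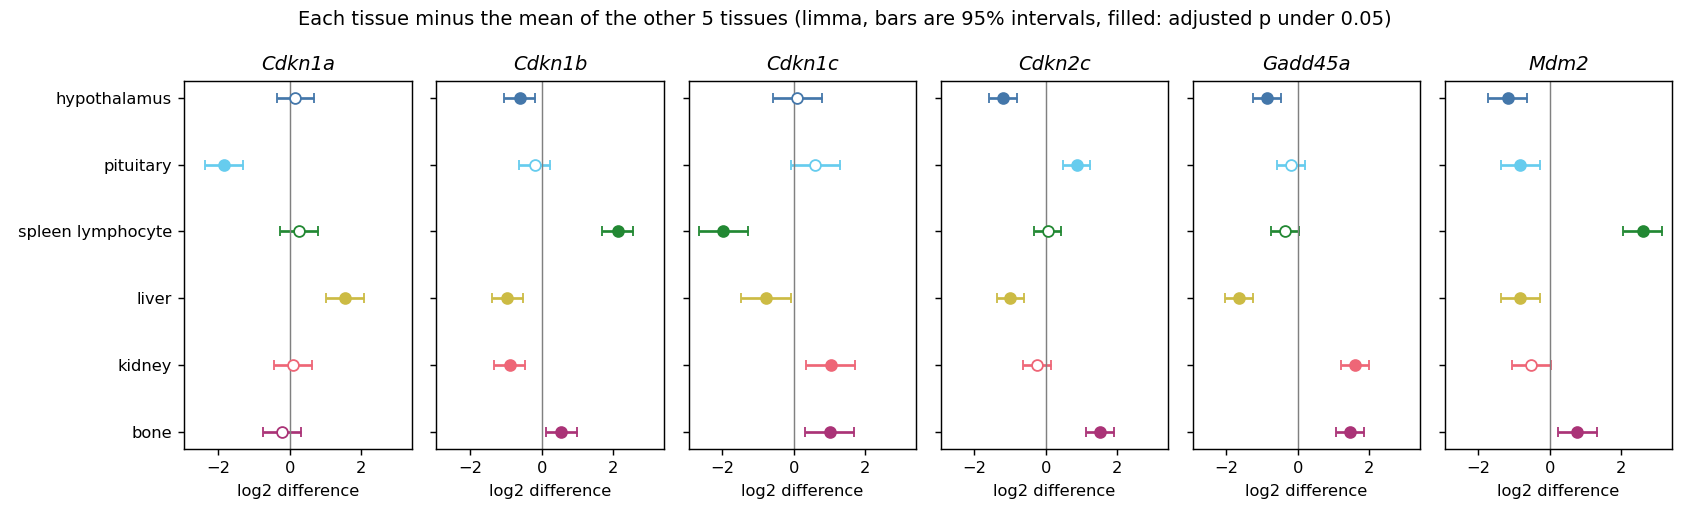
Log2 difference of each tissue from the mean of the other 5 for the 6 genes tested, from limma over 24 arrays, with 95% intervals. Filled points have an adjusted p under 0.05, and the spleen lymphocyte points of Cdkn1b (2.13) and Mdm2 (2.59) lie farthest to the right.

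Cdkn1a, whose product p21 stops the cycle after p53 is activated, was at 100 or more on 23 of the 24 arrays, with its highest median in liver. In liver its signal was 1105, 558, 999 and 1054 at 4, 10, 18 and 24 months. In pituitary it was 166, 100.5, 157 and 66.4, the last of which is below 100. Every liver array lay above every array of hypothalamus (462, 329, 430.4 and 403), spleen lymphocyte (315, 412, 514 and 494), kidney (195, 433, 484 and 550.0) and pituitary, whereas the 4-month bone array, at 722, lay above the 10-month liver array. At the later ages bone had 238, 232 and 279. Liver was higher than the other tissues by 1.55 ± 0.25 (SE, log2 scale; adjusted p = 1.43e-05), and pituitary was lower (-1.84 ± 0.25, adjusted p = 2.41e-06). Without the 4-month arrays bone too was lower (-0.64, adjusted p = 0.00265), and kidney (0.53, adjusted p = 0.00981) and spleen lymphocyte (0.47, adjusted p = 0.0159) were higher, whereas with them none of the 3 passed. The second probe set was at 100 or more on 5 arrays, the 4 of liver (331, 259.7, 279 and 296) and that of bone at 4 months (110.2), the same arrays that are highest on the kept probe set but for the order of liver and bone.

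A RefSeq promoter of Cdkn1a on the rat build GRCr8 (chr20:7150682-7150981, plus strand, 250 bases before to 50 after the start) is shown because the gene is the best known p53 target of the set. Capitals here and in the other promoters mark matches on either strand to any of 7 motifs. The GC box was searched as GGGCGG and the CCAAT box by its name. The TATA box was searched as TATAAA, the E2F motif as TTTCGCGC or else TTTGGCGC, and the E box as CACGTG. The forkhead motif was searched as GTAAACA, and the p53 half-site by its usual consensus. None of these motifs is part of another. This window holds 1 p53 half-site and none of the other 6 motifs, and 56.7% of its bases are G or C.
Cdkn1a: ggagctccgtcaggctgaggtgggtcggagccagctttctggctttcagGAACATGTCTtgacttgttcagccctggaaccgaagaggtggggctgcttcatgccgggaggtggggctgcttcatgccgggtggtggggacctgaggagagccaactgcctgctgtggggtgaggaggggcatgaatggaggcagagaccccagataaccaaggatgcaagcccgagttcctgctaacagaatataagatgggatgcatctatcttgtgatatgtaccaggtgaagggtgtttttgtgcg
Of all 33469 promoters of this length, 7.98% hold a p53 half-site, 33.1% a GC box, 37.5% a CCAAT box, 14.2% a TATA box, 6.42% an E box, 3.78% a forkhead match and 0.792% an E2F match. RefSeq promoters were matched for 6 of the 7 genes, all but Cdkn1c. Only the first listed window of each of these genes was searched, so a motif absent from it may stand at another start site. A match is a run of letters and was not tested as a binding site.

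Cdkn1b, whose product p27 holds cells in a resting state, was highest in spleen lymphocyte at every age. The signal there was 10743, 6365, 6629 and 8175 at 4, 10, 18 and 24 months. The next tissue, bone, had 2974, 2513, 3460.0 and 3656, so the lowest spleen lymphocyte array lay above the highest bone array. Pituitary had 2706, 1153, 2398 and 2299.7, and hypothalamus 1189, 1555, 1188 and 2987. Liver had 1639, 880.0, 1691 and 1181, and kidney 1106, 956, 2222 and 1441. From bone down to kidney the ranges of neighbouring tissues overlap. Spleen lymphocyte was higher than the other tissues by 2.13 ± 0.21 (SE, log2; adjusted p = 7.64e-09). Liver (-0.97 ± 0.21, adjusted p = 0.000331) and kidney (-0.90 ± 0.21, adjusted p = 0.000882) were lower.

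The 2 weaker calls for Cdkn1b depended on single ages or on the probe set. Hypothalamus was lower by the fit (-0.61 ± 0.21, adjusted p = 0.0152), but not without the 4-month arrays (-0.41, adjusted p = 0.132) or the 18-month arrays (-0.39, adjusted p = 0.142). Bone was higher (0.54 ± 0.21, adjusted p = 0.0316), but not without the 10-month arrays (adjusted p = 0.124) or the 24-month arrays (adjusted p = 0.0733). On the second probe set the order of tissues differed. Spleen lymphocyte was again at the top, with 728, 2121, 1692 and 993, and higher than the other tissues by 2.89 ± 0.25 (adjusted p = 1.56e-09 over all probe sets). Liver came next with 387, 377, 290.2 and 262, above every pituitary array, and its difference was 0.53 ± 0.25 (adjusted p = 0.0725), where the kept probe set put liver below the other tissues. Bone was lower on the second probe set (-0.68 ± 0.25, adjusted p = 0.0264), the opposite of its direction on the kept one.

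The promoters of Cdkn1b (chr4:169491254-169491553, plus strand) and Mdm2 (chr7:55200742-55201041, minus strand) are set side by side because both genes were highest in spleen lymphocyte. Both are rich in G and C (64.7 and 66%, where the median promoter has 51.7%) and in CpG pairs, with 30 and 31 against a median of 7. Cdkn2c, highest in bone, has 65.3% and 29 CpG pairs and Cdkn2b 62.3% and 21, so this is not particular to the pair. Gadd45a has 60.3% and 14, and Cdkn1a 56.7% and 7. Cdkn1b holds 1 GC box and 2 CCAAT matches, and Mdm2 holds 2 GC boxes, 1 CCAAT match and 1 match to the forkhead letters.
Cdkn1b: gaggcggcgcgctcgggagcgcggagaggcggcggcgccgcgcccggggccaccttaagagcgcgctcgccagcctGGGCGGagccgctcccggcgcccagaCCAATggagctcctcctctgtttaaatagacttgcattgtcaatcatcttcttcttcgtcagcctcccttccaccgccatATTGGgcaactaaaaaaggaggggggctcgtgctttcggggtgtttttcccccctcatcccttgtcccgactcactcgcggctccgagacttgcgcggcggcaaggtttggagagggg
Mdm2: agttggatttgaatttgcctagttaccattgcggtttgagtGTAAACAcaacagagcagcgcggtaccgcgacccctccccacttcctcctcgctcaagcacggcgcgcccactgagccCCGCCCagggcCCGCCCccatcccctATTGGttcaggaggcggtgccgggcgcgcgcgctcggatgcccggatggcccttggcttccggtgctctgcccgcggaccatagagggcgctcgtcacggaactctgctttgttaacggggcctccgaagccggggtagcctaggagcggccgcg
The forkhead letters stand in 1 of the 6 promoters matched, that of Mdm2, and no p53 half-site lies in this Mdm2 window.

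Cdkn1c, the gene of p57, which is active in many tissues during development, was the least settled by tissue. Kidney had 537, 925, 1197 and 1096 at 4, 10, 18 and 24 months, and bone 2668, 989, 503 and 467. Pituitary had 625, 914, 696 and 615, hypothalamus 429.9, 336, 596 and 873, and liver 188, 393, 382 and 356. Spleen lymphocyte had 214, 153, 195 and 48.6, the last below 100. Ranked by the median, every tissue's range overlaps that of the next. Spleen lymphocyte was lower than the other tissues (-1.97 ± 0.33, adjusted p = 1.99e-05). Kidney (1.03 ± 0.33, adjusted p = 0.0116) and bone (1.01 ± 0.33, adjusted p = 0.0133) were higher and liver lower (-0.78 ± 0.33, adjusted p = 0.0458). Without the 4-month arrays the bone difference was 0.38 (adjusted p = 0.235) and that of liver -0.47 (adjusted p = 0.128), and pituitary passed (0.68, adjusted p = 0.0380). The liver call was lost with quantile normalization (adjusted p = 0.140) or median centring (adjusted p = 0.101) too. The bone call was also lost without the 10-month arrays (adjusted p = 0.0685), the liver call without the 10-month (adjusted p = 0.0773) or 18-month arrays (adjusted p = 0.0729), and the kidney call without any one of the 3 later ages (adjusted p from 0.0504 to 0.0751).

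Cdkn2b, the gene of p15, which TGF-beta induces, was near or below the limit of 100 throughout. Its 8 values of at least 100 were 127 in pituitary and 100.9 in liver at 4 months, 142 in spleen lymphocyte and 105 in kidney at 10 months, 118 in bone at 18 months, and 144 in hypothalamus, 184 in liver and 141 in kidney at 24 months. The other 16 values ran from 13.6 to 98.8. No tissue had 2 consecutive ages at 100 or more, so no change between consecutive ages could be measured for this gene. Liver had 100.9 at 4 and 184 at 24 months, and kidney 105 at 10 and 141 at 24 months, all close to the limit. All tissues overlapped in range. At 24 months 3 of the 6 tissues were at 100 or more, against 2 at 4 months, 2 at 10 months and 1 at 18 months, and levels this low give no order.

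Cdkn2c, the gene of p18, whose loss in mice is known to give pituitary tumours, was highest in bone. Bone had 970.1, 1544, 1109 and 1261, and pituitary 661, 875, 715 and 1103. Every array of both lay above all arrays of the other 4 tissues, the narrowest gap being that between 661.0 in pituitary at 4 months and 660.6 in spleen lymphocyte at 24 months. Spleen lymphocyte had 337, 560.3, 561 and 661 and kidney 461, 433, 336 and 524. Hypothalamus had 148, 269.5, 314 and 311, and liver 375, 207, 327 and 246. Bone was higher than the other tissues by 1.52 ± 0.19 (adjusted p = 3.48e-07), and pituitary by 0.86 ± 0.19 (adjusted p = 0.000461). Hypothalamus (-1.20 ± 0.19, adjusted p = 8.08e-06) and liver (-0.99 ± 0.19, adjusted p = 7.05e-05) were lower.

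Gadd45a, a stress-induced gene whose product binds p21 and the replication clamp PCNA, split the tissues into 2 levels. Kidney had 1368, 1538, 1105 and 1472, and bone 673, 1842, 1359 and 1469, all above the highest array of any other tissue. Pituitary lay between 454 and 523, spleen lymphocyte between 418 and 463 and hypothalamus between 235 and 432. Liver had 175, 196, 177 and 319.7. Kidney was higher than the other tissues by 1.59 ± 0.19 (adjusted p = 2.30e-07) and bone by 1.45 ± 0.19 (adjusted p = 8.58e-07). Liver (-1.64 ± 0.19, adjusted p = 1.05e-07) and hypothalamus (-0.87 ± 0.19, adjusted p = 0.000420) were lower. Its promoter (chr4:97486750-97487049, minus strand) is shown for comparison with that of Cdkn1a, since both genes are known p53 targets. It holds 1 GC box, 1 CCAAT and 1 p53 half-site, with 60.3% G or C.
Gadd45a: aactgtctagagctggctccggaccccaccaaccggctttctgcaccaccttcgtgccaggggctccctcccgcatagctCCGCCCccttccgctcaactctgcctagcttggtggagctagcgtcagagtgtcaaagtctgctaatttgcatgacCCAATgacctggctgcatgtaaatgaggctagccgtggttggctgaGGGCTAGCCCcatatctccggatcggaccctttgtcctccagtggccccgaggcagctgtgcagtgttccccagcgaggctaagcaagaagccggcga
The Cdkn2c promoter also holds 1 p53 half-site, so 3 of the 6 promoters do.

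Mdm2, the ubiquitin ligase that removes p53, was highest in spleen lymphocyte, with 1932, 1329, 1314 and 1308 at 4, 10, 18 and 24 months. Bone came next with 519, 469.9, 436 and 613, and its 4 arrays lay below spleen lymphocyte and above all others. Kidney had 116, 353, 286 and 283, liver 145, 226, 204 and 247, and pituitary 202, 80.5, 358 and 225. Hypothalamus had 226, 188, 172 and 52.3. The last 4 tissues overlap. Spleen lymphocyte was higher than the other tissues by 2.59 ± 0.26 (adjusted p = 1.48e-08) and bone by 0.77 ± 0.26 (adjusted p = 0.0176, and 0.0949 without the 24-month arrays). Hypothalamus (-1.18 ± 0.26, adjusted p = 0.000570), pituitary (-0.83 ± 0.26, adjusted p = 0.0110) and liver (-0.83 ± 0.26, adjusted p = 0.00927) were lower. Without the 10-month arrays the pituitary difference was -0.45 (adjusted p = 0.208) and kidney passed as lower (-0.77, adjusted p = 0.0326). The second probe set reached 100 on 10 arrays and did not set spleen lymphocyte apart, with 70.7, 165, 127 and 236 there and 244, 256, 82.2 and 91.9 in bone.

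Markers of other cells and RNA quality also differed between the tissues. The log2 ratio of the 3′ to the 5′ probe set of Actb, a measure that rises as RNA breaks down, was 3.74, 2.63, 2.33 and 1.88 in spleen lymphocyte at the 4 ages, 2.85, 2.74, 2.61 and 1.43 in liver and 1.56, 0.48, 1.12 and 1.31 in bone. In hypothalamus it ran from 1.10 to 3.09, in pituitary from 1.98 to 2.42 and in kidney from 1.40 to 1.93. Bone arrays also held 5 neutrophil markers with a summed signal of 40531 to 113765 and 4 red blood cell precursor markers with 39716 to 65585. In spleen lymphocyte the same red blood cell precursor markers summed to 32044, 16815, 19076 and 31035 at the 4 ages. Their lowest sum was at 10 months, where Cdkn1b was lowest on its kept probe set (6365) and highest on its second (2121). The neutrophil markers there summed to 1695, 3501, 12006 and 5507. The part of these markers and of RNA quality in the levels of the genes was not tested.

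The second question was whether any of the genes moved with age in all tissues together. None of the 6 genes tested passed in any of the 4 comparisons of ages, 10 against 4, 18 against 10, 24 against 18 and 24 against 4 months. Of all 8452 genes, 0% were called in each as well. By limma 446, 223, 246 and 530 genes had an unadjusted p under 0.05 in this order, which is 5.28, 2.64, 2.91 and 6.27% of the genes. Among the 6 genes 1, 1, 0 and 1 did. The shifts of the 6 genes from one age to the next ran from -0.49 to 0.56 on the log2 scale.

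Cdkn1b was the gene with an unadjusted p under 0.05 in the first 2 phases. Its shift was -0.49 ± 0.22 (SE) from 4 to 10 months (adjusted p = 0.922) and 0.56 ± 0.22 from 10 to 18 months (adjusted p = 0.999). The kept probe set was lower at 10 than at 4 months in 5 of the 6 tissues, hypothalamus being the exception, whereas the second probe set gave a shift of 0.45 ± 0.27, in the other direction. Cdkn2c had the largest shift of the 6 from 4 to 24 months, 0.46 ± 0.20 (adjusted p = 0.757), and was higher at 24 than at 4 months in 5 of 6 tissues, all but liver. For Cdkn1a, one of the genes used as a sign of senescence, the shift from 4 to 24 months was -0.04 with a 95% interval of -0.59 to 0.52, and its sign changed with the tissue left out. Kidney had 195 at 4 months and 550.0 at 24 months, and bone 722 and 279. The arrays of different tissues at an age come from the same rats, so a common shift is not one seen in independent animals.

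Within single tissues, a gene was counted as changed between consecutive ages where its signals differed at least 2-fold and both were at 100 or more. With 1 array on each side this is a rule of size and not a test. Of 126 comparisons, 103 were measured on both sides and 10 met the rule, 7 higher and 3 lower at the older age. Over all genes and the 18 pairs of ages and tissues, 3.87% of comparisons met it. From 4 to 10 months 7 of 35 measured comparisons met the rule, from 10 to 18 months 2 of 35, and from 18 to 24 months 1 of 33. Of all genes, between 1.21% (kidney) and 9.71% (bone) met it from 4 to 10 months, depending on the tissue. This share ran from 1.35% (pituitary) to 8.79% (bone) from 10 to 18 months. It ran from 1.25% (pituitary) to 7.64% (bone) from 18 to 24 months. By gene, Cdkn1b met the rule in 4 comparisons, Cdkn1a and Cdkn1c in 2 each, Gadd45a and Mdm2 in 1 each, and Cdkn2c in none of 18.

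**Figure D3:**
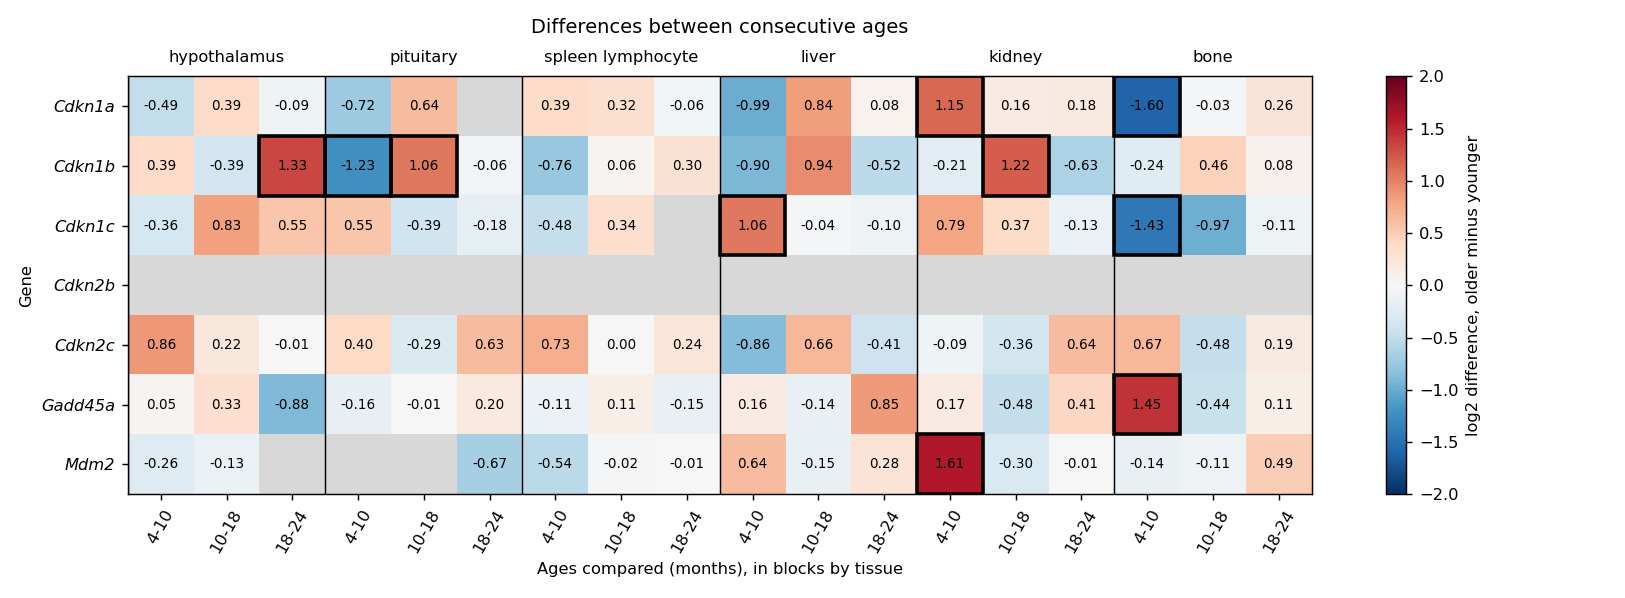
Log2 difference between consecutive ages (older minus younger) for each gene and tissue, with tissues in blocks and the ages compared in months on the horizontal axis. Black frames mark the 10 differences of at least 2-fold, from -1.60 for Cdkn1a in bone to 1.61 for Mdm2 in kidney. Grey cells have a signal under 100 at one of the ages.

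Bone changed most from 4 to 10 months. Cdkn1a was lower (from 722 to 238, -1.60 on the log2 scale), Cdkn1c was lower (from 2668 to 989, -1.43) and Gadd45a higher (from 673 to 1842, 1.45), so 3 of the 6 genes measured met the rule, where 9.71% of all genes did. In later phases none of the 6 met it in bone, against 8.79% of all genes from 10 to 18 months and 7.64% from 18 to 24 months. Cdkn1c went on to 503 at 18 months, a difference of -0.97 that is just short of 2-fold. The second probe set of Cdkn1a went from 110.2 to 47.5, the second value being under 100.

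The makeup of the bone arrays differed over the same ages. The 7 osteoblast and osteocyte markers measured summed to 110143, 62701, 46848 and 37294 at 4, 10, 18 and 24 months, all 7 at 100 or more on every array. Over the same ages the 5 neutrophil markers summed to 40531, 77017, 86151 and 113765, and the 4 red blood cell precursor markers to 39716, 53129, 56099 and 65585. The 5 skeletal muscle markers went from 2328 at 4 months to 7248 at 10 months, and then to 7405 and 4856. The Actb ratio was lower at 10 than at 4 months, going from 1.56 to 0.48. The 4-month bone array had the lowest weight of all arrays (0.317) when limma weighted arrays by their fit. The part of these in the changes of Cdkn1a, Cdkn1c and Gadd45a was not tested.

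**Figure D4:**
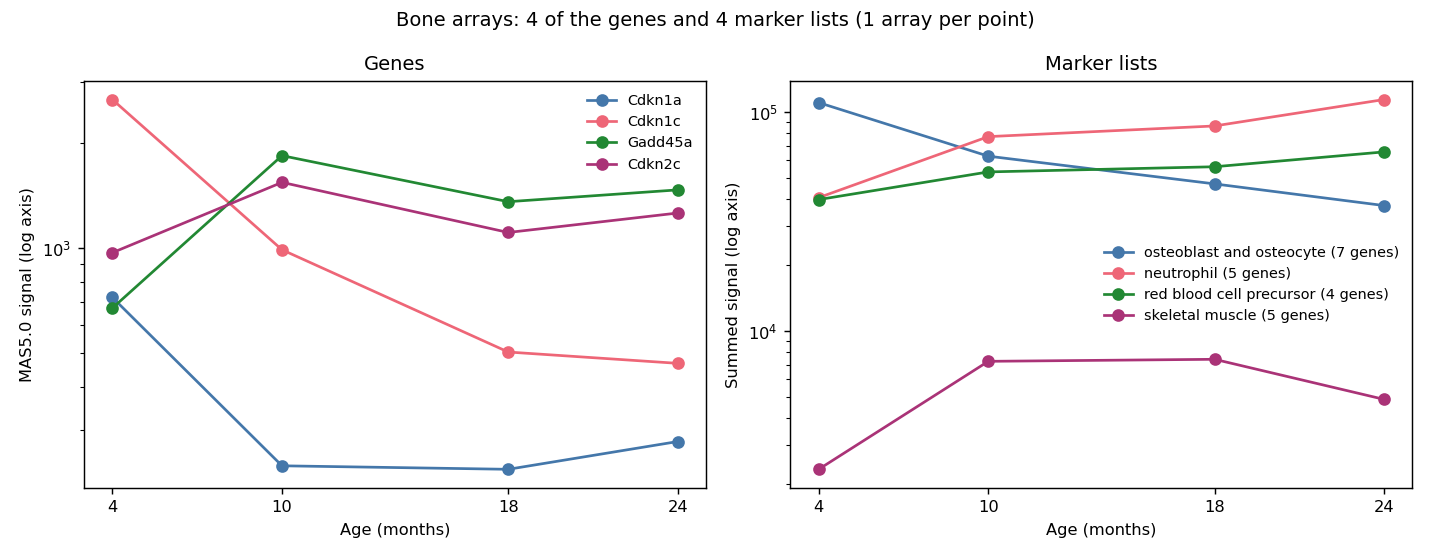
Left, MAS5.0 signal (log axis) of Cdkn1a, Cdkn1c, Gadd45a and Cdkn2c on the 4 bone arrays against age in months. Right, summed signal (log axis) of 4 marker lists on the same arrays, where osteoblast and osteocyte markers go from 110143 to 37294 and neutrophil markers from 40531 to 113765.

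In kidney, Mdm2 went from 116 at 4 months to 353 at 10 months (1.61) and Cdkn1a from 195 to 433 (1.15), so 2 of 6 genes met the rule where 1.21% of all genes did. Both p53 targets stayed above their 4-month signal at 18 and 24 months, when Cdkn1a had 484 and 550.0 and Mdm2 286 and 283. All of these comparisons rest on the 4-month kidney array, on which Mdm2, at 116, was close to the limit of 100. Gadd45a, the other p53 target of the set, had 1368 and 1538 at 4 and 10 months. Of the p53 targets outside the set, 12 were measured in kidney from 4 to 10 months. Among these 12, 0 met the rule, and the median difference was 0.017, where that of all genes was -0.0061. The second probe set of Mdm2 went from 125 to 75.6, in the other direction, and that of Cdkn1a was at most 23.1 on every kidney array. From 10 to 18 months Cdkn1b went from 956 to 2222 (1.22), 1 of 6 genes where 5.23% of all genes met the rule. The second probe set of Cdkn1b was under 100 at both ages, and the 18-month kidney array had a weight of 0.375. From 18 to 24 months 0 of 6 met the rule, against 3.34%.

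In pituitary, Cdkn1b was lower at 10 than at 4 months (from 2706 to 1153, -1.23) and higher again at 18 months (2398, 1.06). In each of these phases 1 of 5 measured genes met the rule, against 2.31 and 1.35% of all genes. From 18 to 24 months none of 5 did, against 1.25%. The second probe set had 140, 246 and 213 at these ages, so it was higher where the kept one was lower. Both pituitary differences rest on the 10-month array, on which Mdm2 too was low (80.5).

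In hypothalamus, Cdkn1b was higher at 24 than at 18 months (from 1188 to 2987, 1.33), 1 of 5 measured genes where 3.81% of all genes met the rule. Both probe sets of Cdkn1b were higher at 24 months, the second going from 180 to 272. None of 6 genes met the rule from 4 to 10 months (3.38% of all genes) or from 10 to 18 months (4.31%). The 24-month hypothalamus array had a weight of 0.453, and Mdm2 was at 52.3 on it.

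In liver, Cdkn1c was higher at 10 than at 4 months (from 188 to 393, 1.06), 1 of 6 where 2.99% of all genes met the rule, and then stayed at 382 and 356. None of 6 met it in the later phases, against 2.94 and 3.37% of all genes. Cdkn1a went from 1105 to 558 and back to 999, differences of -0.99 and 0.84 that do not reach 2-fold. In spleen lymphocyte none of the genes met the rule in any phase, where 3.7, 2.3 and 2.14% of all genes did. The largest difference measured there was that of Cdkn1b from 4 to 10 months, -0.76, and the second probe set of Cdkn1b went from 728 to 2121 between the same arrays.

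The 2 probe sets of a gene can be set against each other in 3 cases. Over the 24 arrays their log2 signals had a Pearson r of 0.64 for Cdkn1a, 0.65 for Cdkn1b and 0.35 for Mdm2. After each tissue's mean was taken off, r was 0.53 for Cdkn1a, -0.04 for Cdkn1b and -0.33 for Mdm2. For Cdkn1b, 13 pairs of consecutive ages had all 4 signals at 100 or more, and the 2 probe sets moved the same way in 5 and in opposite ways in 8. For Cdkn1a all 3 such pairs went the same way, and for Mdm2 1 of 3 did. Which transcripts each probe set reads was not analysed here.

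**Figure D5:**
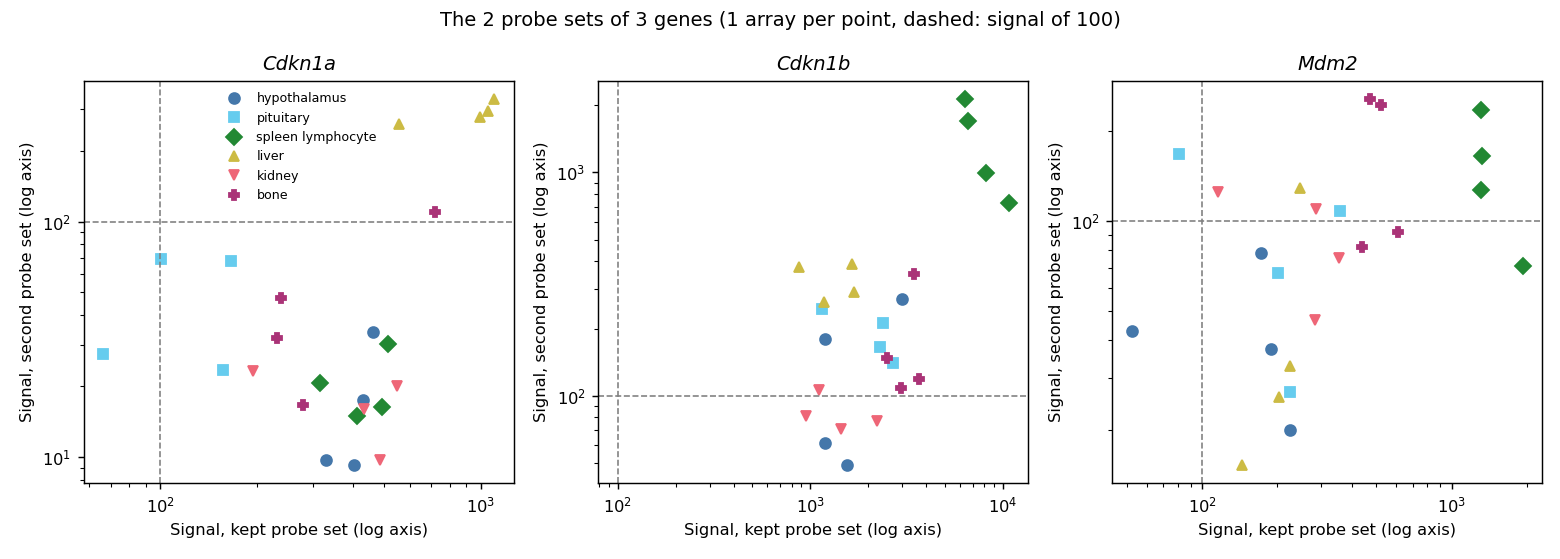
Signal of the second probe set against that of the kept one (both log axes) for Cdkn1a, Cdkn1b and Mdm2, with 1 point per array, coloured by tissue. Dashed lines mark a signal of 100. For Cdkn1b the 4 spleen lymphocyte arrays lie apart at the upper right, with the highest kept signal (10743) beside the lowest second one (728).

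Among the 6 genes themselves, Cdkn1b and Mdm2 had the most alike patterns, with a Pearson r of 0.82 over the 24 arrays. After tissue and age means were taken off, r was 0.06. The least alike were Cdkn1a and Cdkn2c, at -0.53. With tissue and age means off, the highest r was that of Cdkn1a and Cdkn1c, 0.51, and the lowest that of Cdkn2c and Mdm2, -0.56. The arrays share rats and the same scaling, and these r are descriptions.

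Of all genes, those most like Cdkn1b over the 24 arrays were Pnisr (r of 0.95), Srrm1 (0.94) and Nono (0.93), and Pnisr was also the most like it after tissue and age means were taken off (0.92). Mdm2 was most like Myc (0.92), Arhgap30 (0.91) and Ap1g2 (0.91), Cdkn1a like Clptm1l (0.84), Lipa (0.81) and Rnf149 (0.80), and Cdkn1c like Fat1 (0.90), Dcn (0.88) and Serpinh1 (0.86). Cdkn2c was most like Pcbp1 (0.89), Klf3 (0.89) and Anxa2 (0.88), and Gadd45a like Tnnc1 (0.94), Ubap1 (0.92) and Bcat2 (0.92). With tissue and age means off, the gene closest to Cdkn1a was Itpr3 (0.86), to Cdkn1c Plod2 (0.85), to Cdkn2c Tm2d3 (0.81), to Gadd45a Polr2c (0.93) and to Mdm2 Aktip (0.78).

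Other genes of the same pathways were counted from 7 lists, whose shares are read against the 3.87% of all comparisons that met the 2-fold rule. In no list did any gene pass limma in any of the 4 comparisons of ages, and the median shifts of the lists ran from -0.20 to 0.15, where those of all genes ran from -0.0046 to 0.011. By the 2-fold rule, 2 of 34 measured comparisons of the other CDK inhibitors and relatives met it (5.88%), 1 higher and 1 lower. Both were of Gadd45g, a relative of Gadd45a, which in kidney had 344 at 10 months, 103 at 18 months and 297 at 24 months. They rest on the 18-month kidney array (weight 0.375), as do the kidney differences of Apaf1, Rb1, Foxo4 and Mmp14 given below. The phosphatase gene Cdkn3 and Gadd45b met it nowhere. Among 16 other p53 targets measured, 6 of 230 comparisons met the rule (2.61%), 2 higher and 4 lower. Apaf1, which starts the caspase cascade, was lower in spleen lymphocyte from 18 to 24 months (-1.24) and in kidney from 10 to 18 months (-1.20). The cyclin gene Ccng1 was lower in bone from 4 to 10 months (-1.04) and the kinase gene Plk2 in bone from 18 to 24 months (-1.01). Both of the higher ones were in bone from 10 to 18 months, Phlda3 (1.21) and Perp (1.49), which are named after their values were seen. These and the Plk2 difference rest on the 18-month bone array. That array stood apart at its low end and had a weight of 0.338.

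On the list of G1 cyclins and CDKs, which also holds Cdc25a, 8 of 142 comparisons met the rule (5.63%), 3 higher and 5 lower. Ccnd2, a D-type cyclin gene, was lower from 4 to 10 months in spleen lymphocyte (from 5932 to 1743, -1.77) and in pituitary (from 4162 to 1997, -1.06), and higher in hypothalamus from 10 to 18 months (from 128 to 474, 1.89). From 4 to 10 months in spleen lymphocyte and pituitary, Cdkn1b on the kept probe set was lower too (-0.76, short of 2-fold, and -1.23). The second probe set of Cdkn1b was higher in both, going from 728 to 2121 and from 140 to 246. Ccnd1 was lower in bone from 4 to 10 months (-1.36), and Cdk7 in hypothalamus was higher at 18 months than at 10 months (1.01) and lower again at 24 months (-1.03). Of the RB and E2F genes, 1 of 121 comparisons met the rule (0.826%), that of Rb1 in kidney from 10 to 18 months (1.02), and E2f4 and Tfdp1 met it nowhere.

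Proliferation genes met the rule in 9 of 267 comparisons (3.37%), 5 higher and 4 lower. Cdk1, the mitotic kinase gene, was higher in hypothalamus (1.23) and lower in liver (-1.10) from 18 to 24 months. Cdc20 was lower in pituitary (-1.34) and higher in liver (1.02) from 10 to 18 months, and Mcm6 in pituitary was higher at 18 than at 10 months (1.16) and lower again at 24 months (-1.15). Genes of p27 turnover and of factors that control CDK inhibitor genes met it in 9 of 232 (3.88%), 5 higher and 4 lower. Foxo4, a forkhead factor, made up 5 of these, with a low value in spleen lymphocyte at 10 months (100.4, between 237 and 254) and in kidney at 18 months (219, between 464 and 445), and it was lower in pituitary from 18 to 24 months (-1.24). Smad3 had a low value on the same 10-month spleen lymphocyte array (141), followed by 311 at 18 months, and Foxo1 was higher in hypothalamus from 10 to 18 months (1.65). Senescence-associated genes met the rule in 22 of 342 comparisons (6.43%), 9 higher and 13 lower. Of these 22, 10 belong to 1 comparison, bone from 4 to 10 months, where 2 genes were higher and 8 lower among 22 measured and 9.71% of all genes met the rule. Mmp14, a membrane-bound metalloproteinase gene, was lower in bone from 4 to 10 months (from 6059 to 1136, -2.42), as was Ccn2 (-1.15), between the same arrays on which the osteoblast and osteocyte markers summed to 110143 and 62701. Their part in the result was not tested. Elsewhere Mmp14 was higher in hypothalamus from 4 to 10 months (1.54) and in kidney from 10 to 18 months (1.08), and lower in hypothalamus from 18 to 24 months (-1.04). Ccn2 was also lower in liver from 4 to 10 months (from 265 to 132). Plau, the urokinase gene, was higher in bone at 18 than at 10 months (1.01) and lower again at 24 months (-1.37). Both of these differences rest on the 18-month bone array. In liver Plau was higher from 4 to 10 months (1.07).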

How the data were processed

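RNA of 6 tissues of male rats at 4 ages was measured on 24 Affymetrix RAE230A arrays, 1 per tissue and age. The authors turned the scanned intensities into linear MAS5.0 signals, with the same mean target intensity for all arrays, and these signals are the deposited values. The version of MAS5.0 is not given in the sources at hand, and its detection calls and change p-values were not used here. The number of arrays limits the precision.

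Of 15923 probe sets (57 controls), 12783 had 1 gene symbol, 312 several and 2771 none, and those with 1 measure 10411 genes. Of these, 1868 have several probe sets, of which the one at 100 or more on the most arrays was kept. Genes at 100 or more on at least 12 arrays were fitted in limma 3.58.1 (R 4.3.3) on log2 of the signal raised to at least 100, which understates differences of low genes. Tissue and age were additive factors with 15 residual degrees of freedom, and p-values were adjusted by Benjamini-Hochberg over all 8452 genes at 0.05. They measure the spread between these arrays, not between rats. The fit was tested on simulated data. Python 3.11.15 with pandas 2.3.3 and numpy 2.4.6 was used for the rest.

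The text names all 7 genes, of each list up to 4 genes past limma's threshold or else up to 3 with the most 2-fold changes, and the genes most alike by Pearson r. The 7 genes, lists and markers were chosen with earlier results of these data known. Alternatives were floors of 50 and 200, 1.5-fold and 3-fold limits, a pseudocount of 50, quantile normalization, median centring, the mean over probe sets, no filter, array weights, and leaving out each age or tissue. Chosen after seeing the data were fits of every probe set singly and without 3 arrays that stand apart, those of hypothalamus at 10 months and of kidney and bone at 18 months. Promoters are those of RefSeq on GRCr8, with only the first listed window of each of the genes shown or counted by name.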

Additional observations from a re-analysis of the deposited data

Results flagged for a closer look

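From 4 to 10 months, 2 of the genes moved at least 2-fold in opposite ways in 2 tissues of the same rats. In this phase 1.21% of all genes met the rule in kidney, 2.99% in liver and 9.71% in bone. The share of all genes that moved in opposite ways in 2 tissues was not counted. Cdkn1a was higher in kidney (1.15 on the log2 scale, from 195 to 433) and lower in bone (-1.60, from 722 to 238). Cdkn1c was higher in liver (1.06, from 188 to 393) and lower in bone (-1.43, from 2668 to 989). Each side is 1 array against 1 array, and the difference between the tissues was not tested. Both pairs rest on the 4-month bone array, on which osteoblast and osteocyte markers had their highest sum in bone (110143).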

How the results depend on the processing

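Of the 36 tissue comparisons, 24 passed, and 20 to 27 did under the alternatives, with 20 to 25 when each age was left out in turn. The sign of a called tissue difference turned in 1 case, Cdkn1b in bone, which was -0.071 with the mean over both probe sets. The lower level of Cdkn1b in liver lost its call with that mean (-0.22), and its higher level in bone with median centring (0.43). Over the single tissue differences that passed, 311 values under alternatives kept direction and call and 24 lost the call. No age comparison of the genes passed under any alternative run (0 in each), and 14 of the 21 age shifts with an unadjusted p over 0.05 changed sign under some alternative. The 10 differences met by the 2-fold rule became 32 at 1.5-fold, 2 at 3-fold and 3 with the mean over probe sets, and 7 to 14 under the other alternatives. The share of all genes under these alternatives is not given here, so these counts cannot be read against it. The tissues of an age share their rats, and each comparison of tissues already has age as a factor. Signals near 100 limit Cdkn2b throughout and the second probe sets of Cdkn1a and Mdm2.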
